A study of Mus musculus with 13 samples.

Results

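The 44 genes described here encode collagen chains. They are all genes in a mouse read count table of 23418 genes whose symbol is Col, a number, the letter a and a number, a rule that reads names alone. They were sorted into fibrillar collagens (11 genes), collagens of beaded filaments (types VI and XXVIII, 7), the basement membrane network (type IV, 6), FACITs (fibril-associated collagens with interrupted helices, 9), transmembrane collagens (4), short chain networks (types VIII and X, 3), multiplexins (types XV and XVIII, 2), the anchoring fibril (type VII, 1) and Col26a1, which was put in none of these. The series looked for transcripts of these cells that make satellite cells, the stem cells of muscle, differentiate, and measured total RNA by bulk sequencing. Its design also names parabiosis, the joining of the circulation of mice, and the labels do not say whether the sequenced cells came from such animals. The groups, none with a named treatment, are MEFs (replicates 1 to 4, so 4 libraries), lung FAPs (replicates 1 to 5, so 5 libraries) and skeletal muscle FAPs (replicates 2 to 5, so 4 libraries). FAP stands in the field for fibro/adipogenic progenitor, a mesenchymal cell of the tissue interstitium, and MEF for mouse embryonic fibroblast, usually a cultured cell, though the labels give the abbreviations alone. The strain, age and sex of the mice, the sort that defined the FAPs, any genotype, and the culture of the MEFs are missing from the sources used here. The labels do not say that replicates are separate animals or cultures, so p-values measure the spread between these libraries, which may be technical.

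Collagens are extracellular proteins whose alpha chains wind around each other into a helix with glycine at regular intervals. Fibrillar collagens such as types I, III and V assemble into the fibrils that carry tension. Type IV forms the sheet of basement membranes, which surround every muscle fibre, type VI forms beaded filaments next to it, and FACITs and multiplexins link fibrils and membranes to their surroundings. In muscle, interstitial mesenchymal cells are regarded as a main source of this matrix, and mutations in type VI genes cause congenital muscular dystrophies.

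Libraries of MEFs held 33756915 to 41466585 counts, those of lung FAPs 28636183 to 35464622 and those of muscle FAPs 41327292 to 44699463. Levels below are CPM values scaled by edgeR's TMM factors, which express a gene's counts relative to its library's scaled total. Library values are given in the order of replicate numbers, and ± marks the SD over n = 4 muscle FAP, n = 5 lung FAP and n = 4 MEF libraries. Within groups, Spearman's correlations between libraries were 0.986 to 0.997 for MEFs, 0.964 to 0.985 for lung FAPs and 0.988 to 0.994 for muscle FAPs. Markers of the labelled cell types were checked first. Pdgfra, a receptor that defines FAPs, stood at 1270.0 to 1487 CPM in muscle FAPs, 776 to 846 in those of lung and 23 to 34.7 in MEFs, and Cd34 at 23.2 to 26.6 in MEFs and at 1112 or more in every FAP library. Vim, a fibroblast filament gene, stood at 3752 to 4125 CPM in MEFs, and no FAP library exceeded 2888 or fell below 1899. It was thus abundant in all groups. The other fibroblast markers differed in pattern. Ly6a ranked FAPs (632.6 CPM or more) above MEFs (58.8 to 111). Thy1 was higher in muscle FAPs (315 to 485) but lower in lung FAPs (35.5 to 103) than in MEFs (153 to 224). Pdgfrb overlapped between MEFs (247 to 296) and FAPs of muscle (207 to 256) and lung (119 to 365). Lung FAPs were less uniform than the other groups. Lung FAP 2 had the highest summed level of endothelial markers among lung FAPs (714 CPM against 202 to 423) and of pericyte and smooth muscle markers (2325 against 594 to 1600.3). In lung FAP 3 the lung epithelial markers summed to 8926 CPM (34.2 to 126 in the other lung FAPs), and blood markers to 653 CPM (29.7 to 54.9). Lyz2 alone held 615 CPM of that blood sum, while Ptprc stood at 13.1 CPM there and at 20.2 in lung FAP 2. In MEFs the blood markers summed to 125 to 473 CPM.

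Collagen genes have more and more regular exons than most genes. In the GENCODE annotation (release M21, mouse build GRCm38, the same as mm10), the longest coding transcript of a collagen chain gene had a median of 48 exons, against 7 over 21853 protein-coding genes. Of their 2005 coding exons, 61.8% were a multiple of 9 bases long, the length of a glycine repeat unit, and 23.4% were exactly 54 bases long. The same shares were 14.5% and 0.676% over all protein-coding genes. Col7a1, which makes the anchoring fibrils under epithelia, had the most exons of the 44 genes (119), and Col10a1 the fewest (3). Several members lie side by side. Col4a1 and Col4a2 start head to head on chromosome 8 with 22 overlapping bases, Col4a4 and Col4a3 on chromosome 1 with 71 bases between them, and Col4a6 and Col4a5 on chromosome X with 1308 bases between them. Col6a6, Col6a5 and Col6a4 follow each other on the same strand of chromosome 9, with 27917 and 28810 bases between them.

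Reads of collagen genes made up a larger share of the library in muscle FAPs than in lung FAPs and MEFs. The 44 genes held 10.01, 8.16, 7.55 and 9.63% of all counts in the muscle FAP libraries, 5.52, 3.76, 5.10, 2.65 and 4.68% in the lung FAP libraries, and 1.46, 1.55, 1.62 and 1.70% in the MEF libraries. All muscle FAP libraries lay above all lung FAP libraries, and these above all MEF libraries. Without Col1a1, Col1a2 and Col3a1, the most abundant members, the summed CPM without scaling had means of 34784 in place of 88345 in muscle FAPs, 11307 in place of 43426 in lung FAPs and 8922 in place of 15829 in MEFs. The means kept their order, but lung FAP 4, at 7498, then lay below all MEF libraries (8184 to 9667). In these bulk samples, fewer collagen-making cells and less collagen RNA per cell cannot be told apart. Of collagen reads, fibrillar genes held 69.4% for muscle FAPs, 79.6% for lung FAPs and 66.6% for MEFs. Type IV genes held 11.8, 4.35 and 17.9%, and beaded filament genes 14.2, 8.46 and 3.07%. Lung FAP 4 was the lowest lung library for 23 of the 27 members that averaged at least 10 CPM there, and lung FAP 1 the highest for 17. Lung FAP 2 and lung FAP 4 also held the lowest collagen shares of their group.

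**Figure D1:**
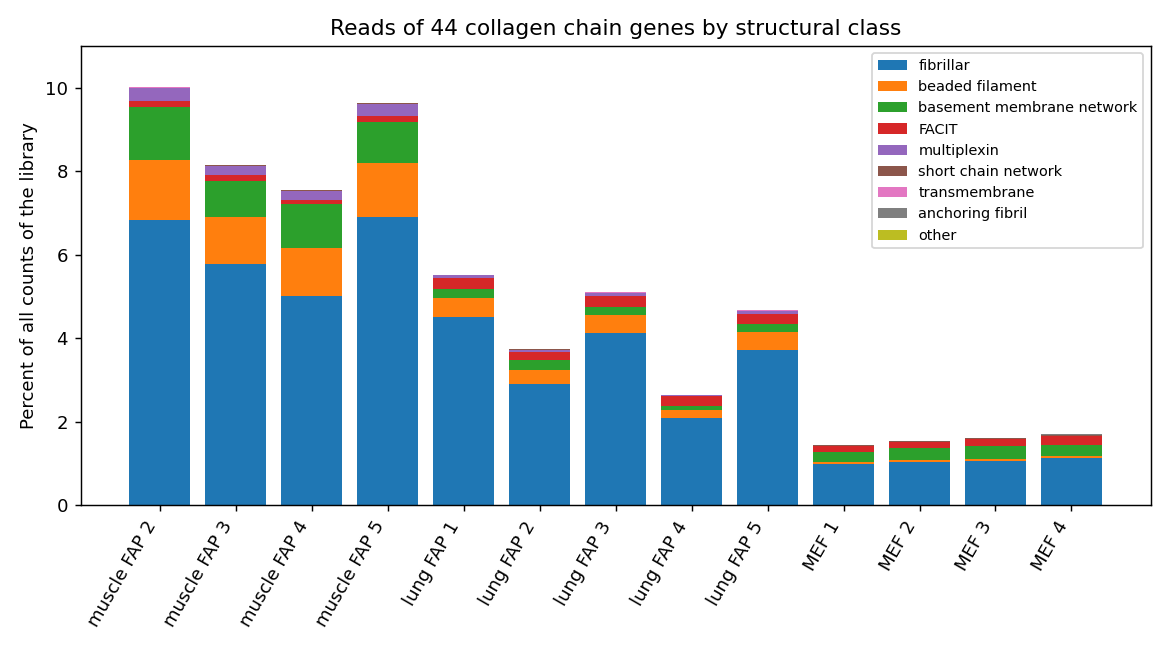
Share of all read counts of each library taken by the 44 collagen chain genes, as stacked bars by structural class (y axis, percent of all counts; x axis, library). Muscle FAP libraries reach 7.55 to 10.01%, lung FAP libraries 2.65 to 5.52% and MEF libraries 1.46 to 1.70%.

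The order of the chains differed between FAPs and MEFs when levels were divided by the summed exon length of each gene. In muscle FAPs the mean level per kb was 6396 CPM for Col3a1, the chain of type III fibrils, 3569 for Col1a2 and 2141 for Col1a1, the chains of type I, then 1424 for Col6a1 and 1276 for Col4a1. The ranges of the first 4 did not overlap, while Col6a1 was above Col4a1 in 3 of 4 libraries. In lung FAPs the same genes led, at 2711, 1773 and 1063 CPM per kb. Within each of the 5 libraries they kept that order, though their ranges over libraries overlapped. Col6a1 (392) and Col14a1 (314), a FACIT that coats fibrils, followed in lung FAPs and overlapped. In MEFs Col1a1 (504) and Col1a2 (451) led and overlapped, followed by Col5a2 (290.3) and Col4a1 (199.6). Col3a1 was the eighth there, at 78.8 CPM per kb.

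**Figure D2:**
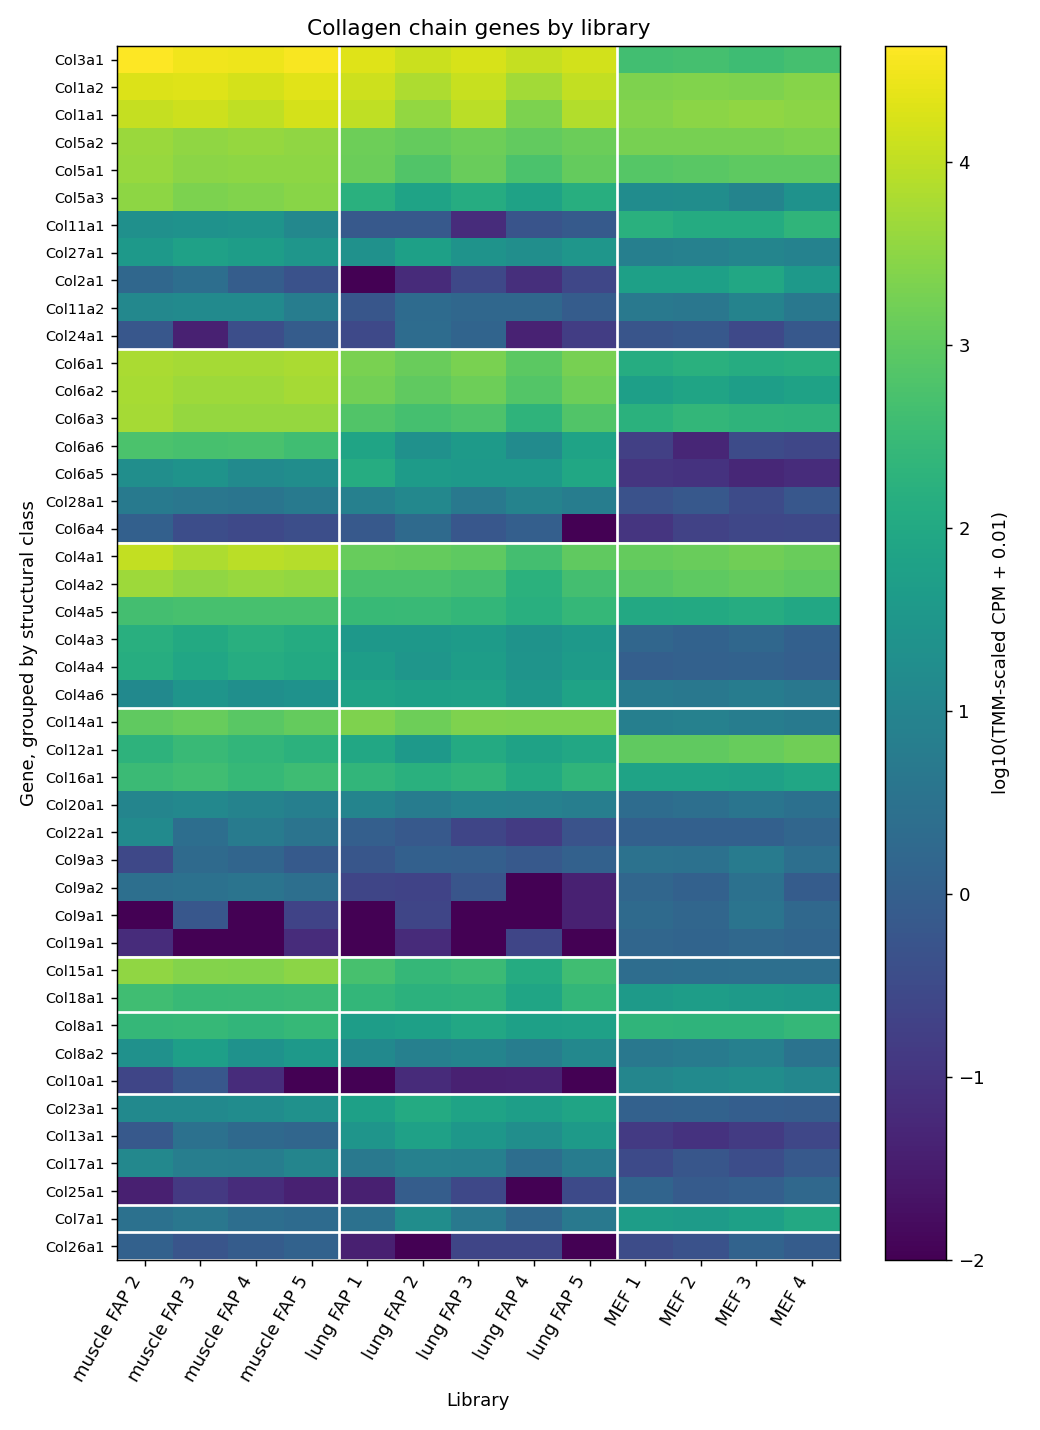
Level of each collagen chain gene (rows, grouped by structural class and ordered by mean level) in each library (columns, grouped by muscle FAP, lung FAP and MEF), as colour on a scale of log10(TMM-scaled CPM + 0.01). Most fibrillar, type VI and type IV rows are brightest in muscle FAPs, while Col2a1, Col11a1, Col12a1, Col10a1 and Col7a1 are brightest in MEFs.

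Most collagen genes differed between both kinds of FAP, mainly toward higher levels in muscle. Of the 44 genes, muscle FAPs had 28 higher and 6 lower, and 10 did not pass (edgeR quasi-likelihood test, adjusted p under 0.05 over all genes tested), beside 48.2% called among all 15412 genes tested. Higher calls made up 23.2% and lower calls 25% of all genes, against 28 and 6 of 44 here. Under scaling by library size only the split was 11.2% higher and 48.4% lower over all genes, and 26 higher and 8 lower among the collagen genes. The median log2 fold change was 1.5 over the collagen genes and −0.04 over all genes tested. In 17 of 44 genes the called difference was past 4-fold, against 10.8% of all genes. The libraries of both groups did not overlap in 31 of 44 genes, against 37.9% of all genes. All 44 genes passed the filter on low counts. Col9a1, Col10a1, Col19a1 and Col25a1 had a mean over 1 CPM in MEFs alone, and so met the filter through that group.

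**Figure D3:**
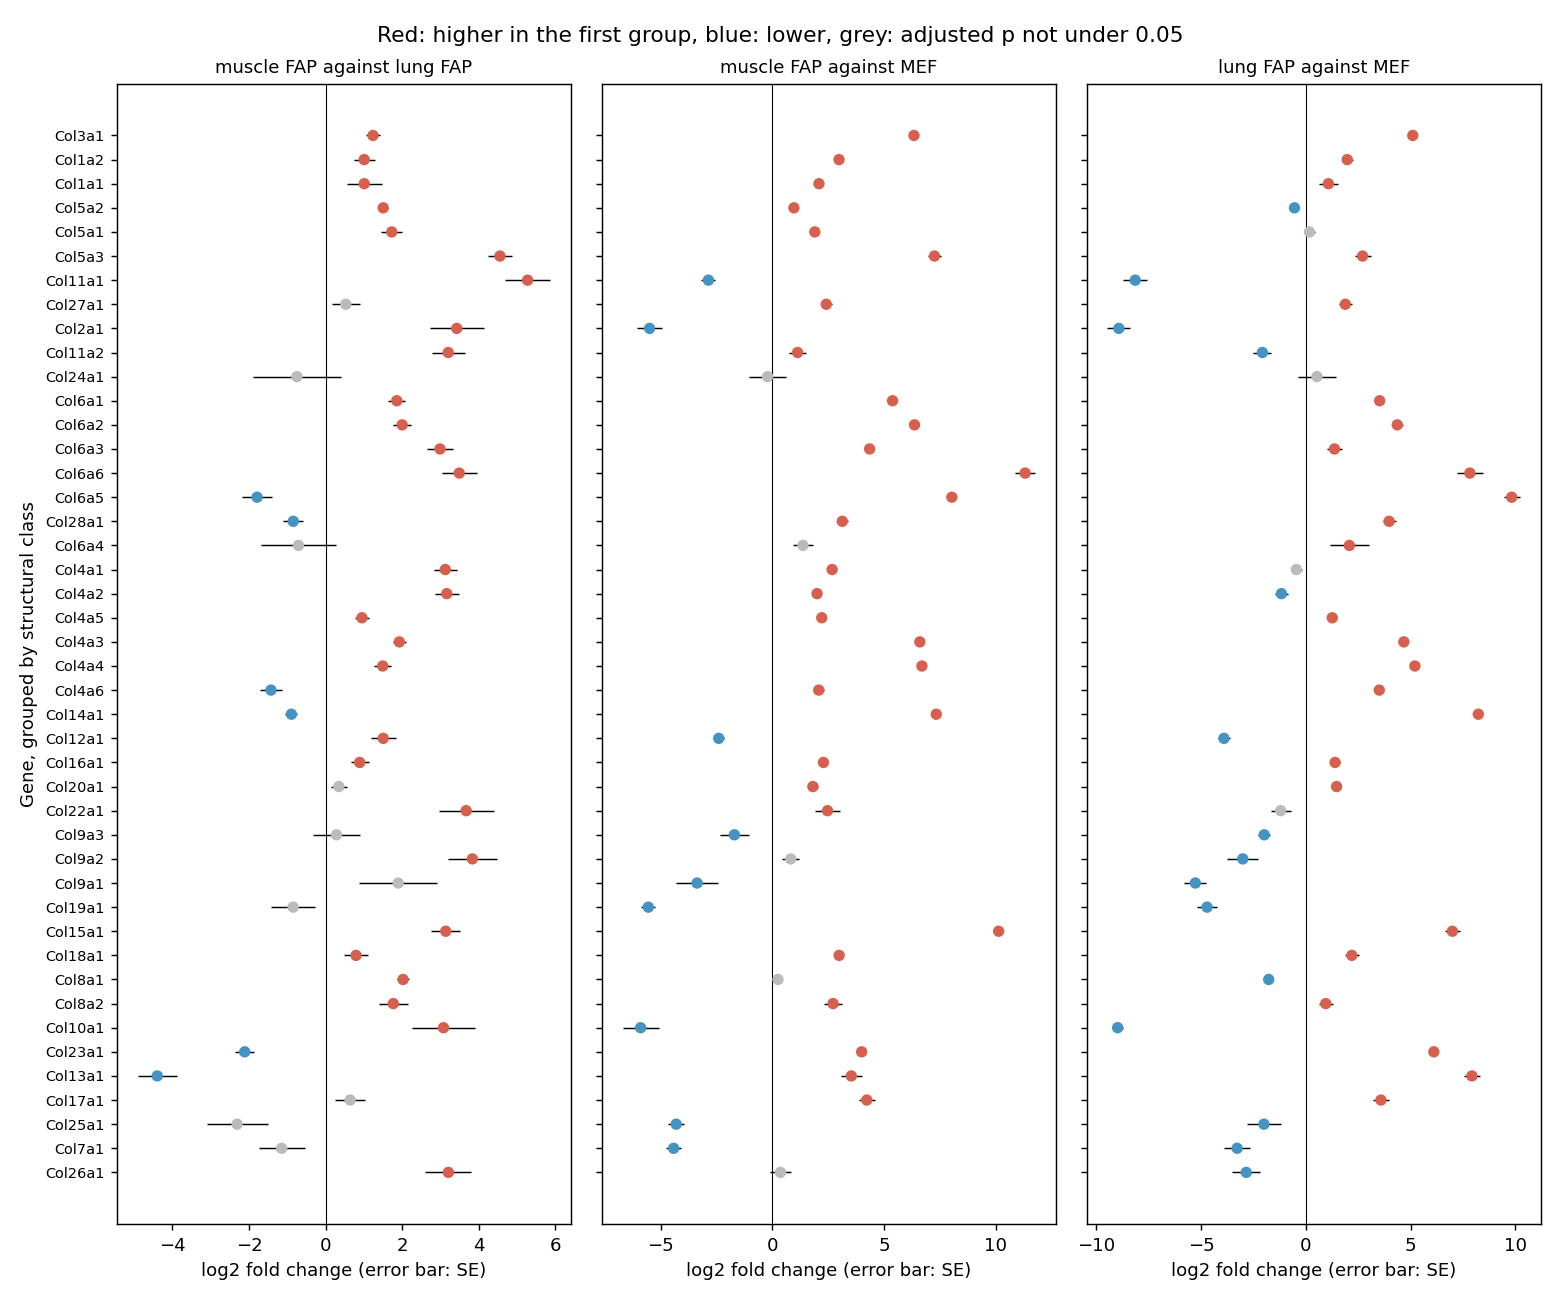
Log2 fold change (x axis, error bars SE) of the 44 collagen chain genes (y axis, grouped by structural class) in 3 panels, which compare muscle with lung FAPs, muscle FAPs with MEFs, and lung FAPs with MEFs. The SE comes from log2 CPM with a prior count of 2 and can be too small for genes with few reads. Red points are higher in the first group, blue lower, at an edgeR adjusted p under 0.05, and grey points did not pass: 28, 30 and 25 genes are red, and 6, 9 and 15 are blue.

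Of the 11 fibrillar genes, 9 were higher in muscle FAPs and 2 did not pass. Over all genes 48.2% were called, 23.2% higher and 25% lower, the background for each class and marker list of this comparison below. Col5a3, a chain of type V, which controls how fibrils start, stood at 3247, 2091, 2392 and 2914 CPM in muscle FAPs and at 162, 68.6, 131, 64.5 and 141 in lung FAPs. Every muscle library was far above every lung library, a 23.5-fold difference (4.55 on the log2 scale, SE 0.31, edgeR adjusted p = 7.86e-08). Col5a1 (3346 ± 439 against 1010.3 ± 365 CPM) and Col5a2 (3751 ± 461 against 1322 ± 178), the other type V chains, were 3.31-fold and 2.84-fold higher (edgeR adjusted p = 2.33e-05 and 4.34e-07). Col11a1, which nucleates cartilage fibrils and is closely related to type V, stood at 20.9, 24.1, 27.2 and 12.6 CPM in muscle FAPs against 0.687, 0.685, 0.0596, 0.532 and 0.752 in lung FAPs. No libraries overlapped (5.28 on the log2 scale, SE 0.59, edgeR adjusted p = 1.45e-07). Col11a2, its partner chain, stood at 12.4 ± 4.09 against 1.35 ± 0.612 CPM and was also higher (log2 fold change 3.20, edgeR adjusted p = 8.71e-06). Col2a1, the main cartilage collagen, passed at very low levels, 1.39 ± 0.919 against 0.126 ± 0.12 CPM (log2 fold change 3.43, edgeR adjusted p = 7.49e-04). Chondrocyte markers moved with these genes: 4 of 7 tested were higher in muscle FAPs, their sum was 9.65 to 16.9 CPM in lung FAPs against 58.6 to 95 in muscle FAPs, Matn1 had no count in either, and their part in the result was not tested.

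The abundant fibril chains differed less. Col3a1 stood at 42916, 31777, 29755 and 37904 CPM in muscle FAPs and 19917, 12912, 16535, 10890.1 and 15163 in lung FAPs, a 2.36-fold difference without overlap (1.24 on the log2 scale, SE 0.19, edgeR adjusted p = 7.47e-05). Col1a2 stood at 18860.4, 19940.2, 15870.4 and 21681 against 13245, 6680.3, 11896, 5141 and 10457 CPM (1.01 on the log2 scale, SE 0.28, edgeR adjusted p = 0.00259). Col1a1 stood at 11284, 13577, 9681 and 16249 against 9694, 3506, 8864, 2069 and 7379 CPM. The highest lung library, lung FAP 1, lay just above the lowest muscle library, muscle FAP 4, and the others did not overlap (1.01 on the log2 scale, SE 0.46, edgeR adjusted p = 0.0284). That call was lost without muscle FAP 3 (edgeR adjusted p = 0.0622), without muscle FAP 5 (edgeR adjusted p = 0.0788), in a fit of muscle and lung FAPs alone (edgeR adjusted p = 0.061), and under scaling by library size only (log2 fold change 0.63, edgeR adjusted p = 0.118). Col27a1 (45.4 ± 13.9 against 31.4 ± 16.2 CPM) did not pass (edgeR adjusted p = 0.158). It passed without lung FAP 2 (log2 fold change 0.91, edgeR adjusted p = 0.00213), whose 59.3 CPM was the highest lung value. Col24a1, at means of 0.471 and 0.79 CPM, did not pass either (edgeR adjusted p = 0.531).

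The stretch before the start of Col3a1, the most abundant chain per kb in both FAP groups, is shown with the letters TATAAA in capitals. They match a TATA box by letters only, far from the end of the stretch, and whether they act as one was not tested. The stretch is chr1:45311288-45311537 on the plus strand (RefSeq, GRCm38.p6), bases before the annotated start. These letters, on either strand, occur in 12.4% of the 32851 promoter windows of 250 bases upstream of RefSeq starts, and in 5 of the 38 windows that 35 of the collagen genes had.
Col3a1: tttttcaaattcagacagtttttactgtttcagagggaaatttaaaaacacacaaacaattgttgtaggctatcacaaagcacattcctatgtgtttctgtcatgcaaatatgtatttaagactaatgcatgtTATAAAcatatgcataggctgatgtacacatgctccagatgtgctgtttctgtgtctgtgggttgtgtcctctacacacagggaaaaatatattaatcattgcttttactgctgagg

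Basement membrane collagen split within its own family. Type IV trimers form from Col4a1 and Col4a2, from Col4a3, Col4a4 and Col4a5, or from Col4a5 and Col4a6. Of the 6 genes, 5 were higher in muscle FAPs and Col4a6 was lower, with no overlap between libraries in any of them. Col4a1 (chromosome 8, 11198423 to 11312826, minus strand) stood at 10540.5, 6702, 8615 and 7895 CPM in muscle FAPs and 1253, 1141, 971, 448 and 1018 in lung FAPs, 8.73-fold higher (3.13 on the log2 scale, SE 0.30, edgeR adjusted p = 1.24e-07). Its head-to-head partner Col4a2 differed by a similar factor (3856 against 429.8 CPM, log2 fold change 3.17 ± 0.32 SE). Col4a3 (132 ± 20.9 against 34.8 ± 6.25 CPM) and Col4a4 (113 ± 22.2 against 40.1 ± 10.1), the chains of kidney and lung basement membrane, were 3.8-fold and 2.81-fold higher (edgeR adjusted p = 1.07e-07 and 6.85e-06). Exons of Col4a3 overlap C430014B12Rik on the other strand by 563 bases, and whether reads were counted by strand is not given in the sources used here, so its count is uncertain.

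Col4a5 and Col4a6, whose starts lie 1308 bases apart, moved in opposite directions. Col4a5 (chromosome X, 141475385 to 141689234, plus strand) stood at 454, 492, 512 and 492 CPM in muscle FAPs and 291, 309, 244, 157 and 259.8 in lung FAPs (0.95 on the log2 scale, SE 0.18, edgeR adjusted p = 1.71e-04). Col4a6 (chromosome X, 141165403 to 141474076, minus strand) stood at 14.2, 28.4, 19.5 and 24.2 CPM in muscle FAPs and 69.1, 57.9, 61.1, 32.4 and 69.7 in lung FAPs (−1.43 on the log2 scale, SE 0.30, edgeR adjusted p = 1.22e-04). All muscle libraries were above the lung libraries for Col4a5 and below them for Col4a6. Bases before both starts, without those that overlap an annotated exon, are printed to show what lies on either side of their shared interval. The Col4a5 stretch is chrX:141475169-141475384 on the plus strand, with CCAAT in capitals, and the Col4a6 stretch is chrX:141474077-141474326 on the minus strand, with CCGCCC, the complement of the GC box GGGCGG, in capitals (RefSeq, GRCm38.p6). On either strand CCAAT occurs in 33.8% and GGGCGG in 32.7% of all windows of 250 bases upstream, and in 13 and 22 of the 38 collagen windows. The whole Col4a5 window of 250 bases holds the GC box letters as well, though not within the printed bases.
Col4a5: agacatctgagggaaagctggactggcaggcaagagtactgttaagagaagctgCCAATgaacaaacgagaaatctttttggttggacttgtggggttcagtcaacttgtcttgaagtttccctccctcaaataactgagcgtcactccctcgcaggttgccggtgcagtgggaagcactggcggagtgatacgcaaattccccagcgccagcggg
Col4a6: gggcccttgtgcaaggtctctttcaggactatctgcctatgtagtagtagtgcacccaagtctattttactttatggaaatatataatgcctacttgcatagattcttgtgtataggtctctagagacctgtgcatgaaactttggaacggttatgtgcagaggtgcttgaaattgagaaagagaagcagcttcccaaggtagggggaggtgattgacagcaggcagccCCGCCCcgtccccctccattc

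Type VI collagen also held members that moved in opposite directions. Its filaments are built from Col6a1, Col6a2 and 1 more chain, which is Col6a3 in most tissues and can be Col6a4, Col6a5 or Col6a6. Col6a1 stood at 6119, 5453, 5634 and 6152 CPM in muscle FAPs and 1998, 1296, 1964, 939.6 and 1844 in lung FAPs, 3.63-fold higher (1.86 on the log2 scale, SE 0.22, edgeR adjusted p = 2.49e-06). Col6a2 was 4-fold higher (5107 ± 579 against 1276 ± 392 CPM, edgeR adjusted p = 2.86e-06) and Col6a3 7.94-fold higher (4230.5 against 533 CPM, edgeR adjusted p = 7.57e-07). Col6a6 (chromosome 9, 105687809 to 105828160, minus strand) stood at 575, 494, 546 and 395 CPM in muscle FAPs and 75.1, 22.7, 41, 16.1 and 68.6 in lung FAPs. Its lowest muscle library was several times its highest lung library (3.49 on the log2 scale, SE 0.45, edgeR adjusted p = 1.70e-05). Its neighbour Col6a5 (chromosome 9, 105856078 to 105960643, minus strand) went the other way, with 19.4, 26, 15.3 and 18.2 CPM in muscle FAPs and 131, 44.6, 36.9, 38.9 and 89.1 in lung FAPs (−1.79 on the log2 scale, SE 0.40, edgeR adjusted p = 0.00106). Lung FAP 1 and 5 were high for both genes among lung libraries. Col6a4, next to them, had means of 0.527 and 0.863 CPM and did not pass (edgeR adjusted p = 0.496).

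The promoters of these tandem neighbours are printed since they differed in direction. The Col6a6 stretch is chr9:105828161-105828335 and the Col6a5 stretch chr9:105960644-105960893, both on the minus strand (RefSeq, GRCm38.p6), with the GC box letters GGGCGG and CCGCCC in capitals. Both stretches hold such letters, and neither window holds TATAAA or CCAAT.
Col6a6: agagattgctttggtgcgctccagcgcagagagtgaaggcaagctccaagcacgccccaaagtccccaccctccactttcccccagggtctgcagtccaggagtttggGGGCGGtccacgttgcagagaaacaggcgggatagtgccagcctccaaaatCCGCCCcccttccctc
Col6a5: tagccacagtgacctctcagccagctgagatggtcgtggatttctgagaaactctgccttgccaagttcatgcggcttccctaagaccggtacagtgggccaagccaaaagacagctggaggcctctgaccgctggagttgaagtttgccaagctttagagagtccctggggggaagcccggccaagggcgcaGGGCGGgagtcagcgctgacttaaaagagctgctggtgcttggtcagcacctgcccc

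**Figure D4:**
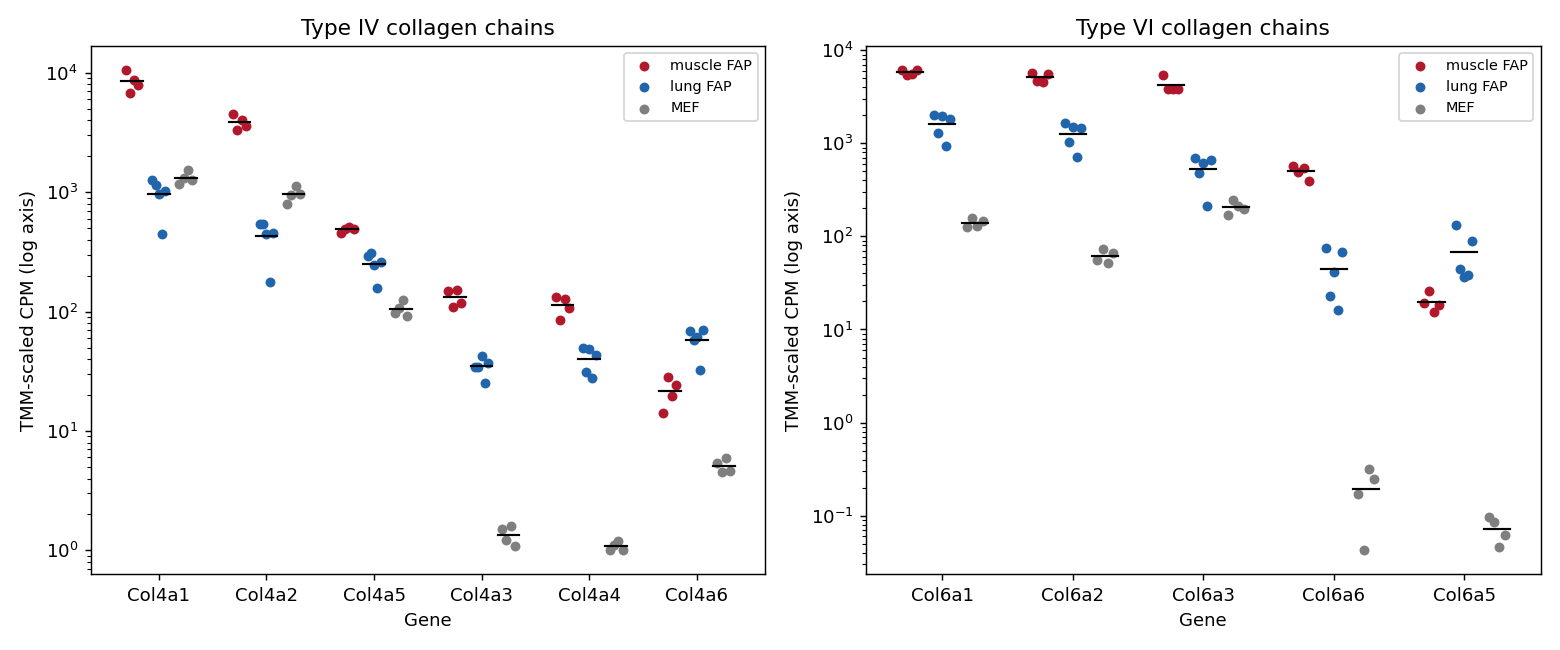
Level (y axis, TMM-scaled CPM on a log axis) of the type IV chains (left) and of 5 type VI chains (right) in each library of muscle FAPs (red), lung FAPs (blue) and MEFs (grey), with a bar at each group mean. Col4a6 and Col6a5 are the chains whose lung FAP libraries all lie above the muscle FAP libraries.

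Col28a1, the other beaded filament gene, was lower in muscle FAPs (4.58 ± 0.737 against 8.22 ± 2.9 CPM, −0.84 on the log2 scale, SE 0.25, edgeR adjusted p = 0.0187), with overlapping libraries. The call was lost without muscle FAP 3 (edgeR adjusted p = 0.0526), muscle FAP 4 (0.0597) or lung FAP 2 (log2 fold change −0.62, edgeR adjusted p = 0.0553).

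Among 9 FACIT genes, muscle FAPs had 4 higher and 1 lower, and 4 did not pass, so 55.6% were called, near the 48.2% of all genes. Col14a1 was the lower one, with 1054, 1253, 871 and 1192 CPM in muscle FAPs and 2181, 1517, 2263, 2068 and 2107 in lung FAPs. All muscle libraries lay below all lung libraries, of which lung FAP 2 was the lowest (−0.89 on the log2 scale, SE 0.16, edgeR adjusted p = 3.16e-04). Col12a1, its close relative on fibrils of tendon and muscle, was 2.84-fold higher (232 ± 59.4 against 81.8 ± 29.5 CPM, edgeR adjusted p = 2.64e-04), and Col16a1 1.85-fold (346 ± 51.5 against 186 ± 52, edgeR adjusted p = 0.00124). Col22a1, a collagen of the junction between muscle and tendon, stood at 14.8, 2.43, 5.76 and 3.59 CPM in muscle FAPs and at most 1.03 in lung FAPs (3.67 on the log2 scale, SE 0.72, edgeR adjusted p = 1.04e-04). Muscle FAP 2 was far above the other muscle libraries, and without it the log2 fold change was 2.92 (edgeR adjusted p = 4.71e-04). Col9a2, which decorates cartilage fibrils, was higher at 2.91 ± 0.394 against 0.199 ± 0.214 CPM (log2 fold change 3.83, edgeR adjusted p = 2.98e-04; 4.59 without lung FAP 3). Col9a1, Col9a3, Col19a1 and Col20a1 did not pass, at means up to 10 CPM in muscle FAPs and 7.89 CPM in lung FAPs. Without lung FAP 2, Col9a1 passed (log2 fold change 4.28, edgeR adjusted p = 0.0236). Tenocyte markers, unlike the FACIT genes, went 1 way: 8 of 8 were higher in muscle FAPs. Their sum was 921 to 3029 CPM in lung FAPs against 6664 to 8651 in muscle FAPs, most of it from Egr1, an immediate-early gene as well. Of the defining ones, Scx stood at 0.374 to 1.12 CPM and Tnmd at 36.3 to 66.4 CPM in muscle FAPs. Their part in the collagen result was not tested.

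Col15a1, a multiplexin at the rim of basement membranes, stood at 3418, 2504, 2349 and 3082 CPM in muscle FAPs and 499, 264, 340.3, 119 and 389 in lung FAPs, 8.81-fold higher without overlap (edgeR adjusted p = 1.28e-06). Col18a1, the other multiplexin and the source of endostatin, stood at 386, 295, 319.9 and 330.2 against 254, 180.1, 195, 78.1 and 252 CPM (0.80 on the log2 scale, SE 0.32, edgeR adjusted p = 0.0179). Its call was lost without muscle FAP 2 (edgeR adjusted p = 0.0523) and under scaling by library size only (log2 fold change 0.40, edgeR adjusted p = 0.182).

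All 3 short chain network genes were higher in muscle FAPs. Col8a1, made by vessel walls and the cornea, stood at 262, 279.6, 239 and 274 CPM in muscle FAPs and 49.2, 59.9, 94.9, 58.9 and 61.2 in lung FAPs (2.02 on the log2 scale, SE 0.17, edgeR adjusted p = 1.07e-07). No libraries overlapped, and lung FAP 3 was the highest lung library. Its partner Col8a2 stood at 34.9 ± 15.6 against 10.2 ± 3.26 CPM (log2 fold change 1.77, edgeR adjusted p = 3.69e-04). Col10a1, the collagen of hypertrophic cartilage, had 31 reads over all muscle FAPs and 4 over all lung FAPs, and its call (log2 fold change 3.08, edgeR adjusted p = 0.0166) was lost without muscle FAP 3 (log2 fold change 1.88, edgeR adjusted p = 0.115).

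Of 4 transmembrane collagen genes, 2 were lower in muscle FAPs, 0 were higher and 2 did not pass, so 50% were called, near the 48.2% of all genes. Col13a1, a membrane collagen of cell adhesions and the neuromuscular junction, stood at 0.699, 3.05, 1.79 and 1.5 CPM in muscle FAPs and 29.4, 62.5, 33.3, 18.4 and 41.2 in lung FAPs, 21-fold lower in muscle (−4.39 on the log2 scale, SE 0.51, edgeR adjusted p = 2.57e-06). Col23a1 stood at 13.7, 14.3, 16.5 and 22.5 against 58.7, 111, 68.6, 51 and 72.9 CPM (−2.11 on the log2 scale, SE 0.25, edgeR adjusted p = 2.01e-06). No libraries overlapped for either gene, and lung FAP 2 was the highest for both. Of the pericyte and smooth muscle markers, 8 of 10 were lower in muscle FAPs, beside 25% of all genes. Their sums were 594 to 2325 CPM in lung FAPs, highest in lung FAP 2, and 122 to 126 in muscle FAPs. In MEFs the sums were 2111 to 3718 CPM, yet Col13a1 and Col23a1 had means of 0.147 and 1.05 CPM there. Without lung FAP 2 the log2 fold changes of muscle against lung FAPs were −4.10 for Col13a1 and −1.89 for Col23a1 (edgeR adjusted p = 9.47e-07 and 4.14e-07). The part of these markers in the result was not tested. Col17a1, the collagen of hemidesmosomes (9.13 ± 3.01 against 5.84 ± 2.3 CPM), and Col25a1 (0.0587 ± 0.0419 against 0.302 ± 0.368) did not pass (edgeR adjusted p = 0.119 and 0.0653). Col17a1 passed without lung FAP 2 and 3, higher in muscle FAPs (log2 fold change 1.03, edgeR adjusted p = 0.0273). Col25a1 did pass, and lower in muscle FAPs, without lung FAP 1 (edgeR adjusted p = 0.0281) or lung FAP 4 (edgeR adjusted p = 0.0191).

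Col7a1 stood at 3, 4.14, 2.53 and 2.13 CPM in muscle FAPs and 3.01, 18.3, 4.77, 1.69 and 4.72 in lung FAPs, and did not pass (log2 fold change −1.14, edgeR adjusted p = 0.135). Under scaling by library size only it passed, lower in muscle FAPs (−1.61, edgeR adjusted p = 0.0469). Lung FAP 2, with the most endothelial and pericyte markers among lung FAPs, was far above the other lung libraries. The part of these markers in the Col7a1 level was not tested. Col26a1 stood at 1.11, 0.562, 0.864 and 1.2 CPM in muscle FAPs and 0.0286, 0, 0.238, 0.233 and 0 in lung FAPs and was higher in muscle at these low levels (log2 fold change 3.21, edgeR adjusted p = 0.00489; 3.84 without lung FAP 3).

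Muscle FAPs differed from MEFs in 39 of 44 collagen genes, beside 73.5% called among all genes. Of these, 30 were higher in muscle FAPs and 9 lower, against 36.1% and 37.3% of all genes (29 and 9, against 24.4% and 52.5%, under scaling by library size only), and 34 were past 4-fold, against 27.5%. Col9a1, Col10a1, Col19a1 and Col25a1 are 4 of the 9 lower genes and 4 of the 15 lower in lung FAPs than in MEFs. They met the filter on low counts through MEFs, where they are high, so their lower calls are a description and support nothing. The libraries did not overlap in 39 of 44 genes, beside 73.9% of all genes. The median log2 fold change was 2.25, against −0.04 over all genes. Lung FAPs were higher than MEFs in 25 collagen genes and lower in 15, which is 40 of 44 beside 74.4% of all genes (37.8% higher and 36.6% lower). In this comparison 27 genes were past 4-fold (26.9% of all genes), 36 did not overlap (65.3% of all genes), and the median was 1.31, against 0.02 over all genes. Both comparisons share the MEF libraries, so their values are given side by side. MEFs are set against tissue cells here, so tissue, stage and any culture cannot be told apart.

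Of the 11 fibrillar genes, 8 were higher and 2 lower in muscle FAPs than in MEFs, and 5 were higher and 4 lower in lung FAPs. So 90.9% and 81.8% were called, beside 73.5% and 74.4% of all genes, the background for each class and marker list against MEFs below. Col3a1 stood at 423, 471, 383 and 478 CPM in MEFs, 81.2-fold below muscle FAPs (6.34 on the log2 scale, SE 0.14, edgeR adjusted p = 8.29e-12) and 34.4-fold below lung FAPs (5.10 on the log2 scale, SE 0.17, edgeR adjusted p = 3.61e-11). Col1a1, at 2545, 3004, 3395 and 3014 CPM in MEFs, differed far less, by 4.25-fold from muscle FAPs (edgeR adjusted p = 2.03e-04). Against lung FAPs the difference was 2.11-fold (edgeR adjusted p = 0.0147), with lung FAP 4 below all MEF libraries. Col5a3 stood at 17, 17.7, 10.1 and 24.6 CPM in MEFs, below both FAP groups (log2 fold change 7.26 ± 0.30 SE for muscle and 2.71 ± 0.38 SE for lung, edgeR adjusted p = 7.74e-10 and 2.57e-06). Col5a2 was higher in muscle FAPs than in MEFs (0.96, edgeR adjusted p = 1.82e-05) and lower in lung FAPs than in MEFs (−0.54, edgeR adjusted p = 0.00176). Col5a1 was higher in muscle FAPs by 3.73-fold (edgeR adjusted p = 5.55e-06) and did not pass for lung FAPs (log2 fold change 0.17, edgeR adjusted p = 0.507). Col1a2 and Col27a1 were higher in both FAP groups, with log2 fold changes of 2.98 and 2.41 for muscle and 1.98 and 1.89 for lung (edgeR adjusted p up to 9.69e-05).

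Several cartilage collagens were highest in MEFs. Among them, Col9a1 and Col10a1 met the filter on low counts through MEFs, so their lower calls are a description and support nothing. Col2a1 stood at 59.3, 59.6, 93.5 and 39.4 CPM in MEFs, and its log2 fold change was −5.50 ± 0.58 SE for muscle FAPs and −8.93 ± 0.54 SE for lung FAPs (edgeR adjusted p = 3.32e-07 and 1.10e-08). Col10a1 stood at 11, 15, 17.5 and 11.8 CPM in MEFs (log2 fold change −5.90 for muscle, −7.12 without muscle FAP 3, and −8.98 for lung, −9.57 without lung FAP 2, edgeR adjusted p up to 1.73e-06). Col11a1 stood at 162, 119, 123 and 215 CPM in MEFs, 7.29-fold above muscle FAPs and 282-fold above lung FAPs (edgeR adjusted p = 2.50e-06 and 4.35e-10). No FAP library reached an MEF library for any of these genes. Col9a1 and Col9a3 were lower in both FAP groups, with log2 fold changes of −3.37 (−4.94 without muscle FAP 3) and −1.70 for muscle and −5.27 (−7.67 without lung FAP 2) and −1.99 for lung (edgeR adjusted p up to 0.0124). Exons of Col9a3 overlap Tcfl5 on the other strand by 234 bases, so its count is uncertain. Col9a2 was lower in lung FAPs than in MEFs (−3.01, −3.76 without lung FAP 3, edgeR adjusted p = 8.28e-04) and did not pass for muscle FAPs (0.82, edgeR adjusted p = 0.255). Col11a2 was higher in muscle FAPs than in MEFs (1.13, edgeR adjusted p = 0.0142) and lower in lung FAPs (−2.07, edgeR adjusted p = 1.32e-04). The muscle call was lost without MEF 2 (edgeR adjusted p = 0.0504) and under scaling by library size only (0.55, edgeR adjusted p = 0.204). Chondrocyte markers summed to 23.1, 28, 38.5 and 23.9 CPM in MEFs, and MEF 3, the highest, was also the highest MEF library for Col2a1, Col9a1, Col9a2, Col9a3, Col10a1 and Col11a2. Col11a1 did not share this pattern, at 123 CPM in MEF 3 against 162 in MEF 1 and 215 in MEF 4. Of 7 tested markers, 2 were lower and 3 higher in muscle FAPs than in MEFs, and Acan, the main cartilage proteoglycan, stood at 1.4 to 3.25 CPM in MEFs. Their part in the result was not tested.

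Type IV genes were higher in muscle FAPs than in MEFs in 6 of 6 cases and in lung FAPs in 4, with 1 lower and 1 not passing. Col4a1 stood at 1159, 1319, 1529 and 1274 CPM in MEFs, 6.39-fold below muscle FAPs (edgeR adjusted p = 2.31e-07), and did not pass against lung FAPs (−0.45 on the log2 scale, SE 0.28, edgeR adjusted p = 0.0944). Under scaling by library size only it passed as lower in lung FAPs (−0.62, edgeR adjusted p = 0.0246), as it did by the DESeq2 Wald test (−0.48, adjusted p = 0.0439). Col4a2 was lower in lung FAPs than in MEFs (−1.16, edgeR adjusted p = 5.77e-04) and higher in muscle FAPs (2.0, edgeR adjusted p = 8.27e-06). Col4a3 and Col4a4 were near 1 CPM in MEFs (1.36 ± 0.242 and 1.08 ± 0.0923), with log2 fold changes of 6.61 and 6.70 for muscle and 4.68 and 5.21 for lung (edgeR adjusted p up to 2.57e-11). Col4a5 (105 CPM in MEFs) and Col4a6 (5.12) were higher in both FAP groups, by 2.21 and 2.08 for muscle and 1.26 and 3.5 for lung on the log2 scale (edgeR adjusted p up to 4.77e-06).

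Of the 7 beaded filament genes, 6 were higher in muscle FAPs than in MEFs and 7 in lung FAPs, with 0 lower. Col6a6 stood at 0.17, 0.0425, 0.318 and 0.246 CPM in MEFs, 35 reads in all, and at 503 and 44.7 CPM in muscle and lung FAPs (log2 fold change 11.32 ± 0.44 SE and 7.83 ± 0.61 SE, edgeR adjusted p = 5.69e-09 and 8.73e-08). Col6a5 had 13 reads over all MEFs, 0.0969, 0.0849, 0.0454 and 0.0615 CPM (log2 fold change 8.04 ± 0.21 SE for muscle and 9.83 ± 0.39 SE for lung, edgeR adjusted p = 4.47e-08 and 5.79e-09). For Col6a5 and Col6a6 these SEs are too small, since the prior count of 2 in them damps the spread at so few reads. Col6a1 stood at 125, 158, 129 and 148 CPM in MEFs, 41.7-fold below muscle FAPs and 11.5-fold below lung FAPs (edgeR adjusted p = 3.94e-11 and 1.34e-09). The same folds were 82.4 and 20.6 for Col6a2 and 20.5 and 2.58 for Col6a3 (edgeR adjusted p up to 3.46e-04), with lung FAP 4 inside the MEF range for Col6a3. Col28a1 was higher in both FAP groups (3.13 and 3.98, edgeR adjusted p up to 3.24e-07). Col6a4 did not pass for muscle (1.37, edgeR adjusted p = 0.171). For lung it passed at 2.08 (edgeR adjusted p = 0.0386), and lost the call without lung FAP 2 (1.49, edgeR adjusted p = 0.115), without lung FAP 4, or without any single MEF library (edgeR adjusted p 0.0585 to 0.106).

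Of the 9 FACIT genes, 4 were higher and 4 lower in muscle FAPs than in MEFs, and 3 were higher and 5 lower in lung FAPs. Col14a1 stood at 7.22, 7.98, 6.61 and 5.14 CPM in MEFs, 162-fold below muscle FAPs and 301-fold below lung FAPs (edgeR adjusted p = 5.32e-13 and 2.29e-13). Col12a1 stood at 1029, 1060.3, 1260.1 and 1559.5 CPM in MEFs, 5.28-fold above muscle FAPs and 15-fold above lung FAPs (edgeR adjusted p = 2.61e-06 and 9.59e-09). Every FAP library was above every MEF library for Col14a1 and below it for Col12a1. Col16a1 and Col20a1 were higher in both FAP groups, with log2 fold changes of 2.29 and 1.82 for muscle and 1.40 and 1.47 for lung (edgeR adjusted p up to 1.47e-05). Col19a1, at 1.54 ± 0.161 CPM in MEFs and 4 and 9 reads over all muscle and lung FAPs, met the filter through MEFs, so its lower level in both FAP groups is a description (log2 fold change −5.56 and −4.71, −6.46 without lung FAP 4, edgeR adjusted p = 2.25e-04 and 2.25e-04). Col22a1 was higher in muscle FAPs (2.47, 1.70 without muscle FAP 2, edgeR adjusted p = 0.00139) and did not pass for lung FAPs (−1.20, edgeR adjusted p = 0.0635), where it passed without lung FAP 1 (−1.61, edgeR adjusted p = 0.0212).

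The remaining classes differed by gene. Col15a1 was barely counted in MEFs, at 2.4, 2.42, 2.57 and 2.7 CPM (log2 fold change 10.13 ± 0.13 SE for muscle and 6.99 ± 0.36 SE for lung, edgeR adjusted p = 5.33e-11 and 6.76e-10), and Col18a1 was higher in both FAP groups (2.99 and 2.20, edgeR adjusted p up to 4.20e-06). Col13a1 stood at 0.121, 0.0849, 0.136 and 0.246 CPM in MEFs (log2 fold change 3.53 ± 0.48 SE for muscle and 7.93 ± 0.37 SE for lung, edgeR adjusted p = 5.01e-05 and 1.24e-08), and Col23a1 at 1.16, 1.19, 0.931 and 0.902 CPM (4.0 and 6.11, edgeR adjusted p up to 2.32e-09). Col17a1 was higher in both FAP groups (4.23 and 3.58, edgeR adjusted p up to 7.16e-07). Col25a1 met the filter through MEFs, so its lower level in both is a description (−4.31 and −2.00, edgeR adjusted p = 0.00131 and 0.0338). The lung call was −3.03 without lung FAP 2 and was lost without lung FAP 3, lung FAP 5, MEF 1, MEF 3 or MEF 4 (edgeR adjusted p 0.0505 to 0.0977). Col7a1 stood at 49.9, 43.6, 59 and 101 CPM in MEFs, above both FAP groups (log2 fold change −4.42 for muscle and −3.28 for lung, −4.18 without lung FAP 2, edgeR adjusted p = 6.63e-05 and 2.18e-04). Col8a1 stood at 214, 207, 204 and 260.3 CPM in MEFs and did not pass against muscle FAPs (0.25, edgeR adjusted p = 0.174; −0.32 under scaling by library size only), while lung FAPs were lower (−1.77, edgeR adjusted p = 6.11e-08). Col8a2 was higher in both FAP groups (2.72 and 0.95, edgeR adjusted p = 7.03e-06 and 0.0161), a lung call lost without MEF 4 (edgeR adjusted p = 0.0573). Col26a1 stood at 0.339, 0.467, 1.25 and 0.84 CPM in MEFs, did not pass against muscle FAPs (edgeR adjusted p = 0.682), and was lower in lung FAPs (−2.84, −3.47 without lung FAP 3, edgeR adjusted p = 0.00555). Col24a1 did not pass for muscle (−0.22) or lung (0.53, edgeR adjusted p = 0.848 and 0.606).

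For 13 pairs of chains, some of one molecule and some of different ones, the ratio of read counts was taken within each library, which needs no scaling between libraries, and was compared between groups by a two-sided exact permutation test on log2 ratios. With 39 comparisons, 31 had a Benjamini-Hochberg adjusted p under 0.05. The smallest raw p possible is 0.00794 for lung FAPs against another group and 0.0286 for muscle FAPs against MEFs, and 27 comparisons were at it. With 1 library of a compared group left out, that smallest p is higher, at 0.0286 for 4 against 4 libraries. A call lost in this way can thus reflect the coarser test. These ratios are not corrected for gene length, so a value for one group says nothing on which chain is more abundant. Col3a1/Col1a1 was 3.8, 2.34, 3.07 and 2.33 in muscle FAPs, 2.05, 3.68, 1.87, 5.26 and 2.05 in lung FAPs and 0.166, 0.157, 0.113 and 0.159 in MEFs. The FAP groups overlapped (log2 difference 0.05, exact permutation p = 0.905, adjusted p = 0.905), and both were far above MEFs (log2 difference 4.22 for lung, exact permutation p = 0.00794, adjusted p = 0.0182). Col1a1/Col1a2, chains joined in type I collagen, averaged 1.25 in MEFs, 0.622 in lung FAPs and 0.66 in muscle FAPs. Lung FAP 2 and 4, the lung libraries lowest in collagen, had the lowest lung ratios (0.525 and 0.402).

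**Figure D5:**
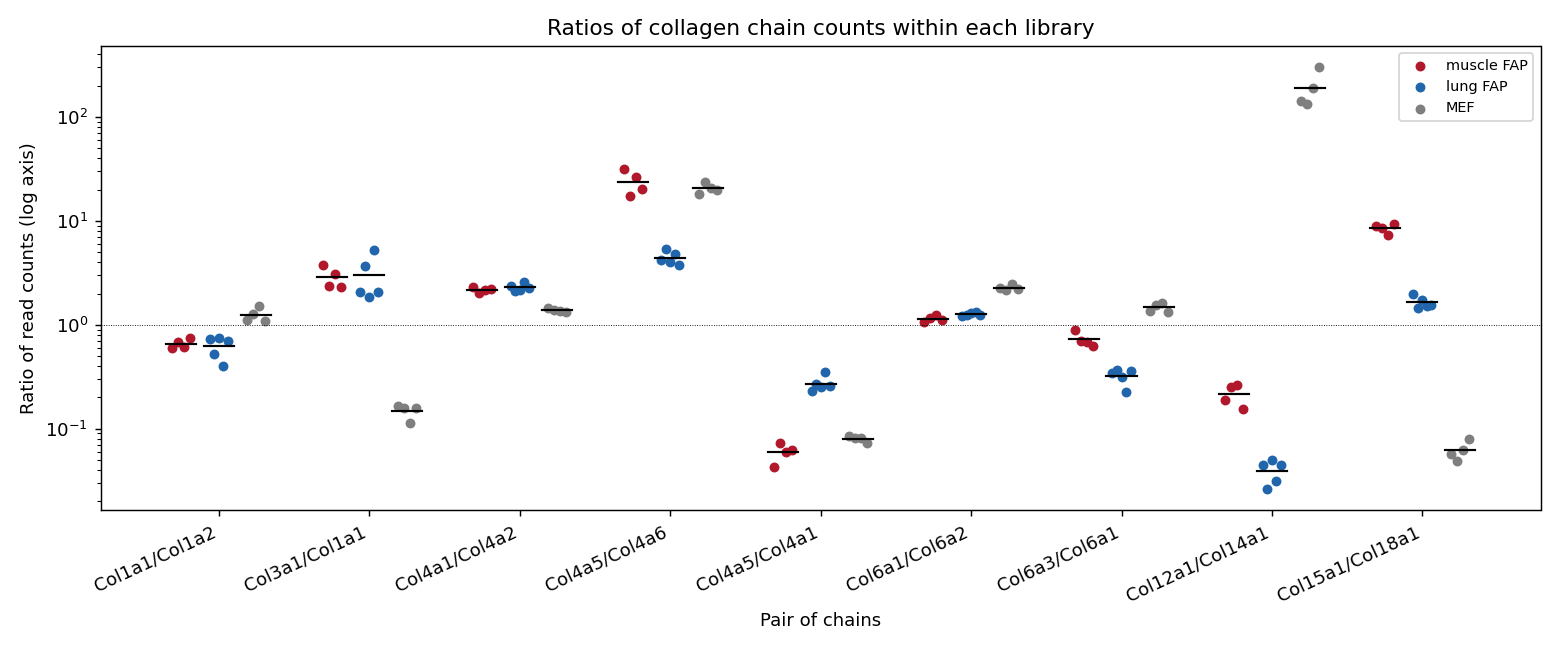
Ratio of read counts of 9 pairs of collagen chains within each library (y axis, log axis; x axis, pair) for muscle FAPs (red), lung FAPs (blue) and MEFs (grey), with a bar at each group mean and a dotted line at a ratio of 1. Col4a5/Col4a6 averages 23.9, 4.42 and 20.6, and Col12a1/Col14a1 0.215, 0.0393 and 192.

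Within type IV, Col4a1/Col4a2 averaged 2.18 for muscle FAPs and 2.29 for lung FAPs (log2 difference −0.07, exact permutation p = 0.349, adjusted p = 0.401) although Col4a1 and Col4a2 differed 8.73-fold and 8.97-fold between these groups. In MEFs it was 1.37, below every FAP library (log2 difference to lung FAPs 0.73, exact permutation p = 0.00794, adjusted p = 0.0182). Col4a5/Col4a6 was 31.8, 17.3, 26.2 and 20.3 in muscle FAPs, 4.21, 5.33, 4, 4.84 and 3.73 in lung FAPs and 18.2, 23.5, 20.8 and 19.9 in MEFs. Lung FAPs stood apart from muscle FAPs (log2 difference 2.41, exact permutation p = 0.00794, adjusted p = 0.0182) and from MEFs (log2 difference −2.23, exact permutation p = 0.00794, adjusted p = 0.0182), and muscle FAPs overlapped MEFs (exact permutation p = 0.457, adjusted p = 0.495). Col4a5/Col4a1 was likewise higher in lung FAPs (0.272) than in muscle FAPs (0.0595) or MEFs (0.0797) without overlap (exact permutation p = 0.00794, adjusted p = 0.0182 for muscle against lung). Col4a3/Col4a4 averaged 1.18, 0.888 and 1.25, lower in lung FAPs than in muscle FAPs (log2 difference 0.42, exact permutation p = 0.0159, adjusted p = 0.0344; 0.0871 adjusted without muscle FAP 3) and MEFs (exact permutation p = 0.0238, adjusted p = 0.0371; up to 0.0696 adjusted with lung FAP 1, 3, 4 or 5 or MEF 1 or 3 left out). Where these calls were lost, the log2 difference was 0.37 for muscle against lung FAPs and −0.41 to −0.51 for lung FAPs against MEFs.

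Within type VI, Col6a3/Col6a1 was 0.886, 0.696, 0.685 and 0.625 in muscle FAPs, 0.347, 0.371, 0.313, 0.224 and 0.361 in lung FAPs and 1.37, 1.55, 1.64 and 1.34 in MEFs. The 3 groups did not overlap (log2 difference of muscle to lung 1.17, exact permutation p = 0.00794, adjusted p = 0.0182). Col6a1/Col6a2 averaged 1.15, 1.27 and 2.27 in muscle FAPs, lung FAPs and MEFs. The difference between the FAP groups was small and passed (log2 difference −0.14, exact permutation p = 0.0238, adjusted p = 0.0371), and it no longer passed without muscle FAP 2 or without lung FAP 2, 3, 4 or 5 (adjusted p up to 0.0696). The log2 difference itself was then −0.111 to −0.148. For MEFs it was larger (log2 difference of lung FAPs −0.84, exact permutation p = 0.00794, adjusted p = 0.0182). Col15a1/Col18a1 averaged 8.5, 1.65 and 0.0619, and Col12a1/Col14a1 0.215, 0.0393 and 192, with each group apart from the others (adjusted p up to 0.0371 by the exact permutation test). Between the FAP groups Col5a1/Col5a2 and Col8a1/Col8a2 overlapped (exact permutation p = 0.246, adjusted p = 0.291, and exact permutation p = 0.413, adjusted p = 0.46). Both differed from MEFs. Col8a1/Col8a2 was higher in MEFs, at 47 against 8.52 and 6.91, and Col5a1/Col5a2 lower, at 0.466 against 0.892 and 0.745. Col11a1/Col5a1, chains that can share a fibril, averaged 0.174 in MEFs, 0.00644 in muscle FAPs and 0.000648 in lung FAPs, with no overlap.

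Genes that make, export and modify collagen mostly stood higher in FAPs of muscle than of lung. Of 12 genes of the prolyl and lysyl hydroxylases and their complexes, which modify the chains before folding, 9 were higher, 0 lower and 3 did not pass (median log2 fold change 0.68, beside −0.04 over all genes). Over all genes 48.2% were called, 23.2% higher and 25% lower, which is the background for each list here. Plod1, a lysyl hydroxylase, stood at 319.6 ± 35.5 against 77.1 ± 12 CPM (2.05 on the log2 scale, SE 0.13, edgeR adjusted p = 1.08e-08). Of 10 folding and export genes 8 were higher and 1 lower (median 0.54). Glt25d2 (Colgalt2), which adds galactose to collagen, stood at 88.9 ± 9.39 against 16.1 ± 2.57 CPM (2.46 on the log2 scale, SE 0.13, edgeR adjusted p = 1.25e-08), and Trappc2, at 5.62 against 9.52 CPM, was the lower one, and it is named after its values were seen. Of 9 genes that trim procollagen, 6 were higher and 1 lower (median 0.99). Adamts14, an N-propeptidase, was higher (77.7 ± 16.4 against 8.72 ± 2.05 CPM, 3.15 on the log2 scale, SE 0.24, edgeR adjusted p = 3.65e-08), while Pcolce2, an enhancer of C-propeptide removal, was lower (269.7 ± 19.7 against 1006 ± 143 CPM, −1.90 on the log2 scale, SE 0.10, edgeR adjusted p = 1.35e-07). Of 7 crosslinking genes 5 were higher and 1 lower (median 0.61). Loxl2, a lysyl oxidase, stood at 1456 ± 174 against 440.4 ± 54.2 CPM (1.73 on the log2 scale, SE 0.11, edgeR adjusted p = 7.56e-08). Tgm2, a transglutaminase, was lower with overlapping libraries (−0.44 on the log2 scale, SE 0.21, edgeR adjusted p = 0.0421), and 6 single libraries each ended that call when left out (muscle FAP 3, 4 or 5, or lung FAP 1, 2 or 5).

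Basement membrane partners were called in 9 of 9 cases, 8 higher and Agrn lower (median 1.70). Hspg2, the core of perlecan, stood at 4964 ± 670.3 against 580.0 ± 323 CPM (3.10 on the log2 scale, SE 0.50, edgeR adjusted p = 5.06e-05), and Agrn, the proteoglycan agrin, at 43.4 ± 6.22 against 95.9 ± 34.8 (−1.15 on the log2 scale, SE 0.33, edgeR adjusted p = 0.00241). Of 11 fibril-associated proteins 7 were higher and 0 lower (median 1.02), with Fmod, fibromodulin, at 403 ± 84.5 against 115 ± 29.2 CPM (1.81 on the log2 scale, SE 0.22, edgeR adjusted p = 1.35e-05). Fmod is also one of the tenocyte markers. Of 7 tested collagen-cleaving enzymes 4 were higher and 2 lower (median 1.02). Fap, a serine protease of activated fibroblasts, stood at 274 ± 35.9 against 42.9 ± 15.9 CPM (2.68 on the log2 scale, SE 0.31, edgeR adjusted p = 4.68e-05). The lower ones, named after their values were seen, were Mmp8 and Mmp9, enzymes that neutrophils and macrophages also make, with 1 and 17 reads over all muscle FAPs and 221 and 393 over all lung FAPs. Blood markers moved with them, with 6 of 7 tested lower in muscle FAPs a summed level of 6.13 to 8.46 CPM in the latter, and their part was not tested. Collagen receptors were more even, with 4 of 11 higher, 2 lower and 5 not passing (median −0.19). Itga11, the fibroblast receptor for fibrillar collagen, was higher (297 ± 36.6 against 59.3 ± 27 CPM, 2.33 on the log2 scale, SE 0.35, edgeR adjusted p = 2.92e-05), and Ddr1, a receptor kinase mostly of epithelia, lower (20.2 ± 1.96 against 53.1 ± 16.6, −1.40 on the log2 scale, SE 0.21, edgeR adjusted p = 0.00106). Lung epithelial markers were also lower in muscle FAPs in 5 of 8 tested cases, with a sum of 34.2 to 8926 CPM in lung FAPs against 1.77 to 4.89 in muscle FAPs. Library by library they did not follow Ddr1. Lung FAP 3, with the highest sum, had Ddr1 at 48.4 CPM, and lung FAP 1, with a sum of 126, at 76.2. In MEFs Ddr1 stood at 83.6 to 220 CPM beside sums of 5.53 to 11. The part of these markers was not tested.

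Against MEFs the same lists went both ways, beside 73.5% of all genes called for muscle FAPs (36.1% higher, 37.3% lower) and 74.4% for lung FAPs (37.8% higher, 36.6% lower). In muscle FAPs 7 of 12 hydroxylase genes were higher and 3 lower (median 0.51), and in lung FAPs 3 were higher and 6 lower (median −0.43). The calls, 83.3% and 75% of the hydroxylase genes, are near those shares of all genes. Leprel2, a prolyl 3-hydroxylase, was higher in both (2.95 and 2.69 on the log2 scale), and P4ha3, a prolyl 4-hydroxylase subunit, lower in both (−1.41 and −1.78, edgeR adjusted p up to 4.74e-05). Of the folding and export genes, 7 were higher and 2 lower in muscle FAPs (median 0.79), and 5 and 3 in lung FAPs (median 0.27). Glt25d2, at 0.501 CPM in MEFs, was higher by 7.45 and 4.99, and Fkbp10, a collagen chaperone, was lower (−0.97 and −1.70, edgeR adjusted p up to 7.10e-05). Procollagen processing genes were higher in 7 and 6 of 9 cases and lower in 1 and 2 (medians 3.22 and 1.60). Adamts2 had a mean of 919 CPM in muscle FAPs against 19.9 in MEFs (5.53 on the log2 scale, SE 0.11, edgeR adjusted p = 1.11e-11), and Pcolce2 was 85.8-fold higher in lung FAPs than in MEFs (edgeR adjusted p = 4.36e-13). Tll1, a tolloid protease, was lower in both FAP groups (−2.98 and −2.62, edgeR adjusted p up to 6.37e-09).

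Of the crosslinking genes, 6 were higher and 1 lower in muscle FAPs than in MEFs (median 1.06), and 4 and 2 in lung FAPs (median 0.50). Tgm2 was higher in both (4.10 and 4.54), and Lox, the main lysyl oxidase, lower in both (−1.28 and −2.13, edgeR adjusted p up to 2.59e-06). Receptors were higher in 7 of 11 cases in each FAP group and lower in 3 and 4 (medians 1.68 and 1.10). Itga11 was higher by 5.38 and 3.06, Ddr1 was lower in muscle FAPs (−2.76), and Cspg4, the NG2 proteoglycan that binds type VI collagen, lower in lung FAPs (−2.90; −3.62 without lung FAP 2; edgeR adjusted p = 3.59e-04). Of the fibril-associated proteins 7 were higher in each FAP group and 1 and 3 lower (medians 1.90 and 0.88). Tnxb, tenascin X, stood at 3.93 CPM in MEFs and was higher by 10.01 and 8.42 on the log2 scale, and Thbs1, thrombospondin, was lower (−0.94 and −2.01, edgeR adjusted p up to 0.00283). Of 9 basement membrane partners 8 were higher and 1 lower in muscle FAPs (median 3.06), and 5 higher and 0 lower in lung FAPs (median 0.80). Lama2, the laminin chain of muscle basement membrane, was higher in muscle FAPs by 47.1-fold (edgeR adjusted p = 1.01e-11), Lama4 12.2-fold higher in lung FAPs (edgeR adjusted p = 1.93e-10), and Agrn lower in muscle FAPs (−0.90). Of 7 tested cleaving enzymes 3 were higher and 2 lower in muscle FAPs, and 4 and 1 in lung FAPs, with Fap higher (6.10 and 3.42) and Mmp14, a membrane collagenase, lower in lung FAPs (−0.69, edgeR adjusted p = 6.20e-04).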

How the data were processed

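RNA was sequenced from 13 mouse libraries: 4 of muscle FAPs, 5 of lung FAPs and 4 of MEFs. The deposited table holds read counts per gene, not normalized. Bowtie2 2.1.0.0, HTSeq, edgeR and the build mm10 are named in the submitters' processing notes. No splice-aware aligner is among them, and the strand setting, the gene annotation and the handling of reads shared by genes are missing from the sources used here, so the effect on levels compared between genes was not tested. Library totals were 28636183 to 44699463 counts, and n of 4 or 5 limits the precision. All 13 count columns matched a library by name, and 0 columns belonged to other samples.

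From the counts, edgeR 4.0.16 in R 4.3.3 was run over all 23418 genes with filterByExpr (15412 genes kept), TMM scaling and the quasi-likelihood test, with all 3 groups in 1 fit. P-values were adjusted by Benjamini-Hochberg over all genes tested, with a threshold of 0.05. Standard errors of log2 fold changes come from log2 CPM with a prior count of 2. The fold changes themselves come from the edgeR fit, so for genes with few reads these errors can be too small. Chain ratios used counts with 0.5 added to each, a two-sided exact permutation test and Benjamini-Hochberg adjustment over 39 comparisons. Levels per kb used summed exon lengths of GENCODE release M21 (GRCm38), and promoters came from RefSeq (GRCm38.p6), with 35 of 44 genes matched. Alternatives were other scalings, other filters, DESeq2 1.42.0, voom in limma 3.58.1, a test against 2-fold, compared groups alone, a replicate block, other added counts, and leaving out libraries. Those without lung FAP 2 and 4 together, those of the gene lists, and leave-one-out shares were chosen after seeing the data.

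The members and the 8 lists of partner genes and 12 of cell type markers were chosen with earlier results of these data known. Every member is named. Values by library go to the member of each class with the highest mean over the groups, and to the 2 called members with the largest change in each comparison and direction, at 10 CPM or more in the higher group and without overlap between libraries. Other members were given by library where it helped to show the spread. From each partner list the called gene with the largest change per direction is named, at the same level.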

Additional observations from a re-analysis of the deposited data

Results flagged for a closer look

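In 10 of 112 sets of libraries (1 member in 1 group, with a highest library of at least 1 CPM), the highest or lowest library lay far from the others by Dixon's criterion. Chance flags about 1 in 20 such sets. In muscle FAPs, muscle FAP 2 stood high for Col5a1 (4002 CPM, the others 3077 to 3175), Col6a3 (5421 CPM, the others 3795 to 3860.3) and Col6a4 (1.08 CPM, the others 0.288 to 0.389). In lung FAPs, lung FAP 2 stood low for Col14a1 (1517 CPM, the others 2068 to 2263) and high for Col7a1 (18.3 CPM, the others 1.69 to 4.77). Lung FAP 3 stood high for Col8a1 (94.9 CPM, the others 49.2 to 61.2), and lung FAP 4 low for Col4a2 (175 CPM, the others 446 to 538). In MEFs, MEF 3 stood high for Col11a2 (9.43 CPM, the others 4.22 to 4.68) and Col9a3 (5.68 CPM, the others 2.66 to 3.1), and MEF 4 for Col22a1 (1.54 CPM, the others 1.07 to 1.09).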

How the results depend on the processing

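Of the collagen genes called, 23 of 34 (muscle FAP against lung FAP), 36 of 39 (muscle FAP against MEF) and 33 of 40 (lung FAP against MEF) were called under every setting that tested them, and 0 changed direction. A filter of 5 CPM in 4 libraries left 3, 5 and 7 of the called genes untested, which is not counted as a loss here. Library size as the only scaling moved the median of all genes by −0.41, −0.58 and −0.17 on the log2 scale in those comparisons. Of the members, 28, 30 and 25 were called higher. With each library left out in turn, 31 to 35, 38 to 39 and 37 to 41 genes were called, and of these 26 to 30, 29 to 30 and 23 to 25 were higher and 5 to 7, 9 and 14 to 16 lower. Partner genes called ranged from 56 to 62, 62 to 64 and 60 to 64 (59, 66 and 62 with all libraries), and chain ratios past the threshold from 29 to 31. The summed collagen CPM without scaling ranged from 15430.4 to 16241 for MEFs, 40472 to 47653 for lung FAPs and 84438 to 92642 for muscle FAPs.

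A test against a minimum 2-fold change left 3 genes lower in muscle than lung FAPs, and 23 and 38 partner genes for muscle against lung FAPs and lung FAPs against MEFs, by its construction. The filter of 5 CPM in 4 libraries tested fewer genes and left 5 and 9 genes lower than in MEFs for muscle and lung FAPs. That sum was 111159 in muscle FAPs and 13384 in MEFs after TMM scaling, and 34784, 11307 and 8922 in muscle FAPs, lung FAPs and MEFs without the 3 most abundant members.

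Directions turned in 22 cases, 0 of them called, and the cause was not tested. With library size only, log2 fold changes were −0.052 for Col20a1 and −0.14 for Col9a3 (muscle against lung FAPs), −0.20 for Col26a1 and −0.32 for Col8a1 (muscle FAPs against MEFs) and −0.013 for Col5a1 (lung FAPs against MEFs). With voom they were 0.74 for Col6a4 (muscle against lung FAPs) and −0.50 for Col24a1 (lung FAPs against MEFs). Leaving out 1 library, muscle against lung FAPs gave −0.17 to 0.61 for Col9a3 (lowest without muscle FAP 3), −1.19 to 0.054 for Col24a1 (highest without lung FAP 2) and −1.37 to 0.88 for Col19a1 (highest without lung FAP 4). Against MEFs, Col24a1 was −0.67 to 0.15 for muscle FAPs (highest without muscle FAP 3) and −0.29 to 0.82 for lung FAPs (lowest without lung FAP 2). Without lung FAP 2 and 3, Col24a1 was 1.53 for muscle against lung FAPs and −1.76 for lung FAPs against MEFs. Without lung FAP 2 and 4, Col19a1 was 3.31 and Col6a4 0.28 for muscle against lung FAPs. The log2 difference between the FAP groups was −0.095 to 0.28 for Col3a1/Col1a1, below 0 without muscle FAP 2 or lung FAP 1, 3 or 5, and −0.029 to 0.19 for Col1a1/Col1a2, lowest without lung FAP 4. That of Col4a3/Col4a4 between muscle FAPs and MEFs was −0.14 to 0.0087, highest without MEF 1.

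Whether equal replicate numbers pair the samples is not given by the labels. Of 11 pairs with the same number, 0 had a correlation of deviations over 0.1 (−0.0484 to 0.0612). This cannot exclude pairing, since cells of different tissues need not share such deviations. With a replicate block, 34, 39 and 38 collagen genes, 58, 63 and 60 partner genes and 30 chain ratios were called. Col4a3/Col4a4 between the FAP groups was the ratio lost (0.42, adjusted p = 0.0564 in a linear model on log2 ratios). Against MEFs the block ended the lung FAP calls of Col1a1 (0.80, edgeR adjusted p = 0.0537), Col25a1 and Col6a4 and added Col22a1.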

Other observations

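Markers of other cell types were measured as a check of what each library held, and their part in the collagen results was not tested. Over all genes, 48.2% were called between muscle and lung FAPs, 23.2% higher and 25% lower in muscle. Against MEFs, 36.1% of all genes were higher and 37.3% lower in muscle FAPs, and 37.8% and 36.6% in lung FAPs. Mesothelial markers were lower in muscle than in lung FAPs in 6 of 6 cases, with sums of 119.6 to 157 CPM for MEFs, 415 to 948 for lung FAPs and 1.21 to 28.2 for muscle FAPs. Osteoblast markers were higher in muscle than in lung FAPs in 4 of 6 cases, and 2 of 6 and 1 of 6 were higher in muscle and lung FAPs than in MEFs, where Spp1, osteopontin, reached 106 to 752 CPM. Schwann cell markers were higher in muscle than in lung FAPs in 2 of 6 cases and lower in 2. Of the muscle fibre markers, 0 of 7 were higher and 2 lower in muscle than in lung FAPs, and of the satellite cell and myoblast markers 2 of 5 were higher and 0 lower, at sums of 0.932 to 1.6 CPM in muscle FAPs. Endothelial markers were lower in muscle than in lung FAPs in 6 of 8 cases and higher in 1. Fibroblast markers were higher in 2 of 6 cases and lower in 0. Between the FAP groups, the called shares of fibroblast (33.3%), muscle fibre (28.6%) and satellite cell and myoblast markers (40%) lay below that of all genes.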
